A study of Mus musculus with 36 samples.

Results

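The comparison described here set glucokinase regulatory protein (GKRP) with leucine at position 446 (446L) against GKRP with proline there (446P) in cultured mouse hepatocytes that carried no glucokinase (GK) vector. It used 12 of the 36 libraries of the series, which form 6 pairs matched by hepatocyte preparation and by the species of the GKRP. All libraries came from primary hepatocytes of 3 female mice of the P446L strain, aged 14 weeks, each mouse being 1 preparation. The labels give the genotype Gckr-446L for animals 1 and 2 and Gckr-446P/L for animal 3. The study describes the hosts as deficient in GKRP. In hepatocytes homozygous for the leucine allele it reports very low GKRP protein but Gckr mRNA similar to wild type. The hosts here carried their own Gckr gene, whose mRNA was 39.2 to 70.7 CPM (scaled reads, defined below) in cultures without any vector. That level does not measure the protein. For transfections the study's methods name mice of this strain as homozygous for leucine, with no nuclear sequestration of endogenous GK. The label of animal 3, which includes the 446P allele, differs from that genotype. After attachment the cells received an adenoviral vector for human GKRP-446P (hP), human GKRP-446L (hL), mouse GKRP-446P (mP) or mouse GKRP-446L (mL), and no library of these 4 groups received the GK vector ("No GK", endogenous GK). Each group held 3 libraries, 1 per animal. The cultures were kept for 24 h, with 10 nM insulin and 10 nM dexamethasone after removal of the vectors, and then for 4 h at 25 mM glucose. Each allele of each species was carried by its own vector, so the allele and the vector cannot be told apart, although the study states 1 titre for all 4.

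GK phosphorylates glucose in the hepatocyte and so sets the entry of glucose into glycolysis and glycogen. GKRP binds and inhibits GK and holds it in the nucleus, from which GK is released when glucose rises or when fructose is present. The glucose-sensing factor ChREBP raises genes of glycolysis and lipogenesis when glucose phosphorylation is high. The proline-to-leucine variant of GKRP is common in people and is associated with blood triglycerides and glucose.

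The codon that the vectors change is shown here in the mouse gene, since it defines the 2 groups. In GRCm39 the codon for residue 446 of Gckr (transcript ENSMUST00000201166, 623 residues) lies at chr5:31466275-31466277 on the plus strand and is the last codon of coding exon 15 of 19. The line below gives the 45 coding bases before it and, in capitals, the codon itself, which encodes proline (chr5:31466230-31466277).
Gckr codon 446, reference: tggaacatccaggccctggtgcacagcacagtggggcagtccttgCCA

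The 12 libraries held between 3930207 and 7312150 reads summed to genes (median 6005254), and the library with the fewest was hL of animal 1. The fragment length implied by the deposited effective transcript lengths ran from 300 bases (mL of animal 1) to 751 bases (hL of animal 1). It also differed within pairs, as with hP (385) and hL (751) of animal 1 and hP (690) and hL (333) of animal 3. Its part in the results below was not tested. Levels are given in CPM, reads scaled to library size after normalization by TMM, and fold changes as the log2 of 446L over 446P. Hepatocyte markers were high in every library, with Alb, the serum albumin gene, between 68000 and 110000 CPM. The summed level of 12 Kupffer cell and macrophage markers was 287 to 327 CPM with 446P and 284 to 339 CPM with 446L, and that of 7 endothelial markers was 73.7 to 113 CPM and 70.1 to 117 CPM. For 7 stellate cell and fibroblast markers the sum was 13.7 to 42.2 CPM with 446P and 13.6 to 46.5 CPM with 446L, higher with 446L in 5 of 6 pairs. For 6 cholangiocyte markers it was 16.1 to 177 CPM and 15.7 to 180 CPM, also higher in 5 of 6 pairs. Of the stellate markers Dcn was the most abundant (10.8 to 39.0 CPM), and Acta2, Col1a1 and Des were at 0 in at least 1 library. Of the cholangiocyte markers Spp1 was the most abundant (6.45 to 165 CPM), and Krt19, Krt7, Epcam and Cftr were at 0 in at least 1 library. The part of these cells in the results below was not tested. In bulk RNA, fewer cells of a type and less RNA per cell cannot be told apart.

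Reads of Gckr (chr5:31454787-31484658) come from the mouse vectors and from the gene of the cell, while the human vectors are not in the mouse reference. With mP, Gckr was 16100, 13700 and 23100 CPM in animals 1, 2 and 3, and with mL it was 14300, 11300 and 17300 CPM. It was lower with mL in each of the 3 animals, but the groups overlapped. The mean log2 ratio was -0.29 (SD 0.12, n = 3), or 81% of the level with mP. On the scale of the authors' TPM summed over the gene's transcripts, however, mL was lower in 1 of 3 animals (mean -0.08, SD 0.61). The transcript ENSMUST00000201166 named above was 6962, 4374 and 8456 TPM with mP. With mL it was 6459, 2239 and 5517 TPM, lower in each animal. A transcript of 372 bases was higher with mL in animals 1 and 2 (7314 and 7812 against 4134 and 4192 TPM). The direction thus depends on the scaling and on the transcripts counted. The 3 mL and 3 mP libraries were permuted in CPM without regard to the animal. That gave p = 0.5 (exact permutation test, two-sided), where 0.1 is the smallest p the test allows. As it leaves out the pairing, it does not test the difference within animals. With the human vectors the reads of the mouse gene were 41.9, 119 and 62.1 CPM with hP and 47.6, 99.7 and 73.8 CPM with hL, far below the level with the mouse vectors in every animal.

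**Figure D1:**
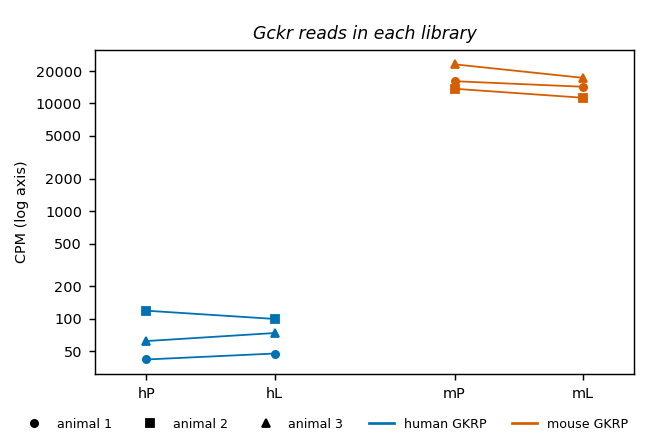
Gckr in the 12 libraries, in CPM on a log axis, with lines joining the 446P and 446L cultures of one animal. Gckr is 11300 to 23100 CPM with the mouse vectors and 41.9 to 119 CPM with the human vectors.

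Few genes separated the alleles at endogenous GK, and their number depended on the model. The median log2 fold change of the 12176 genes tested was 0.002. With edgeR's quasi-likelihood test on condition means alone, 0 genes passed an adjusted p of 0.05 with a fold of 1.3 or 0.7 in either direction (0% of the genes tested). At an unadjusted p under 0.05 there were 117 higher and 109 lower genes (0.961% and 0.895%). DESeq2 on the same samples, also on condition means alone, called 12 higher and 8 lower, none of them among the 10 genes named next. When the animal, that is the hepatocyte preparation, was added to the model as a block, 10 genes were called higher with 446L and 0 lower, which is 0.0821% and 0% of the genes tested, and 359 and 272 genes (2.95% and 2.23%) had an unadjusted p under 0.05. These 10 genes were Ddit4, Tbx3, Tiparp, Adm, Hmox1, Shroom1, Vegfa, Pnrc1, Zbtb21 and Slc2a1. Each was higher with 446L in 6 of 6 pairs, as were 317 genes, or 2.6%, of all those tested, and 248 genes, or 2.04%, were lower in all 6. DESeq2 with the block called all 10 named genes (DESeq2 adjusted p 3.08e-07 to 0.0125), among 38 called higher and 6 called lower. The calls depend on the block and on the number of animals. In the blocked fit 2 of the 10 remained called without animal 1, with 3 genes called in all, and none without animal 2 (lowest adjusted p 0.0745) or without animal 3 (0.503). None was called with the block in the 12 libraries alone (adjusted p 0.0589 to 0.0839) or with an offset for transcript length. The 10 genes were higher with 446L in all of these fits, which reuse the libraries in which they were called.

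**Figure D2:**
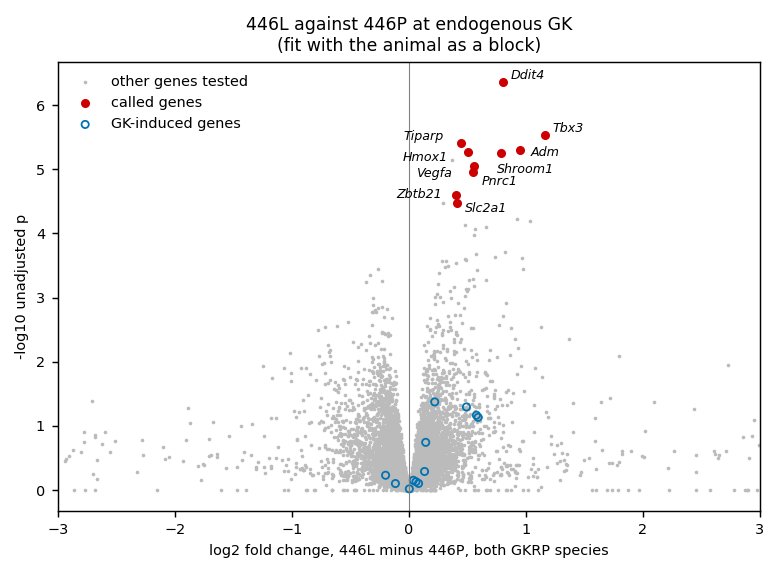
Each point is a gene tested, with the pooled log2 fold change of 446L over 446P (x axis, 12085 genes within ±3) against the -log10 of the unadjusted p of the blocked fit (y axis). The 10 called genes, in red, all lie to the right of 0, and 12 of the GK-induced genes, as blue circles, lie lower and on both sides of 0.

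Adm and Vegfa, which encode secreted factors that act on blood vessels, were among the called genes. Adm encodes adrenomedullin, a vasodilator peptide. Adm was 10.9, 42.9 and 19.0 CPM with hP in animals 1, 2 and 3 and 20.9, 94.0 and 55.8 CPM with hL. With the mouse vectors it was 13.8, 39.2 and 16.6 CPM with mP and 18.0, 51.9 and 41.1 CPM with mL. In every group animal 2 was highest and animal 1 lowest, and the groups overlapped, but within each animal the 446L culture was higher. The pooled log2 fold change was 0.95 (SE 0.42) without the block and 0.95 (SE 0.16, edgeR adjusted p = 0.0113) with it. Vegfa, the endothelial growth factor, was 74.5, 256 and 106 CPM with hP, 108, 408 and 209 CPM with hL, 71.4, 226 and 110 CPM with mP and 92.9, 270 and 159 CPM with mL. Its order of animals was that of Adm, and its blocked log2 fold change was 0.55 (SE 0.10, adjusted p = 0.0135).

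Ddit4, Hmox1 and Slc2a1 act in growth control, heme breakdown and glucose uptake. Ddit4 encodes REDD1, an inhibitor of the mTORC1 kinase. Ddit4 was 14.7, 27.4 and 20.5 CPM with hP in animals 1, 2 and 3 and 24.6, 56.8 and 30.5 CPM with hL. With the mouse vectors it was 16.8, 24.5 and 14.7 CPM with mP and 23.8, 38.3 and 36.1 CPM with mL. The lowest 446L library lay above all but 2 of the 6 446P libraries, and the pair ratios ran from 0.50 to 1.28 on the log2 scale. Its blocked log2 fold change was 0.81 (SE 0.11, adjusted p = 0.00535), the smallest adjusted p of the comparison, against 0.82 (SE 0.23, adjusted p = 1) without the block. Hmox1, the heme oxygenase that degrades heme, was 161, 548 and 229 CPM with hP and 227, 907 and 388 CPM with hL. It was 180, 501 and 237 CPM with mP and 225, 638 and 310 CPM with mL, so that animal 2 stood above the others in all 4 groups by more than the alleles differed. The blocked log2 fold change of Hmox1 was 0.51 (SE 0.08, adjusted p = 0.0113). Slc2a1, the glucose transporter GLUT1, was 96.7, 143 and 109 CPM with hP, 123, 251 and 173 CPM with hL, 95.1, 131 and 101 CPM with mP and 103, 150 and 125 CPM with mL. Its blocked log2 fold change was 0.42 (SE 0.08, adjusted p = 0.0341), and the pairs differed by 0.35 to 0.81 with the human vectors and by 0.11 to 0.30 with the mouse vectors.

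The remaining called genes included several regulators of transcription. Tbx3, a T-box repressor that marks hepatocytes around the central vein, had the highest fold change of the 10. It was 2.79, 4.69 and 3.09 CPM with hP in animals 1, 2 and 3, 3.98, 13.7 and 9.12 CPM with hL, 2.44, 3.4 and 2.4 CPM with mP and 3.09, 8.55 and 6.38 CPM with mL. The pairs of animal 1 differed least with both species, and the blocked log2 fold change was 1.16 (SE 0.19, adjusted p = 0.0113). Tiparp, an ADP-ribosyltransferase induced by the aryl hydrocarbon receptor, was 41.8 to 73.1 CPM with 446P and 53.2 to 93.9 CPM with 446L, with a blocked log2 fold change of 0.45 (SE 0.07). Shroom1, which encodes a protein of the actin-binding Shroom family, was 18.4 to 32.7 CPM and 28.5 to 81.3 CPM, a change of 0.79 (SE 0.13). Pnrc1, a nuclear receptor coactivator, was 15.9 to 69.7 CPM and 24.0 to 103 CPM, a change of 0.55 (SE 0.10). Zbtb21, a zinc finger regulator, was 16.5 to 24.4 CPM and 22.1 to 35.7 CPM, a change of 0.40 (SE 0.08) and a fold of 1.32, just inside the limit. For these 4 genes too the groups overlapped and every pair was higher with 446L.

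**Figure D3:**
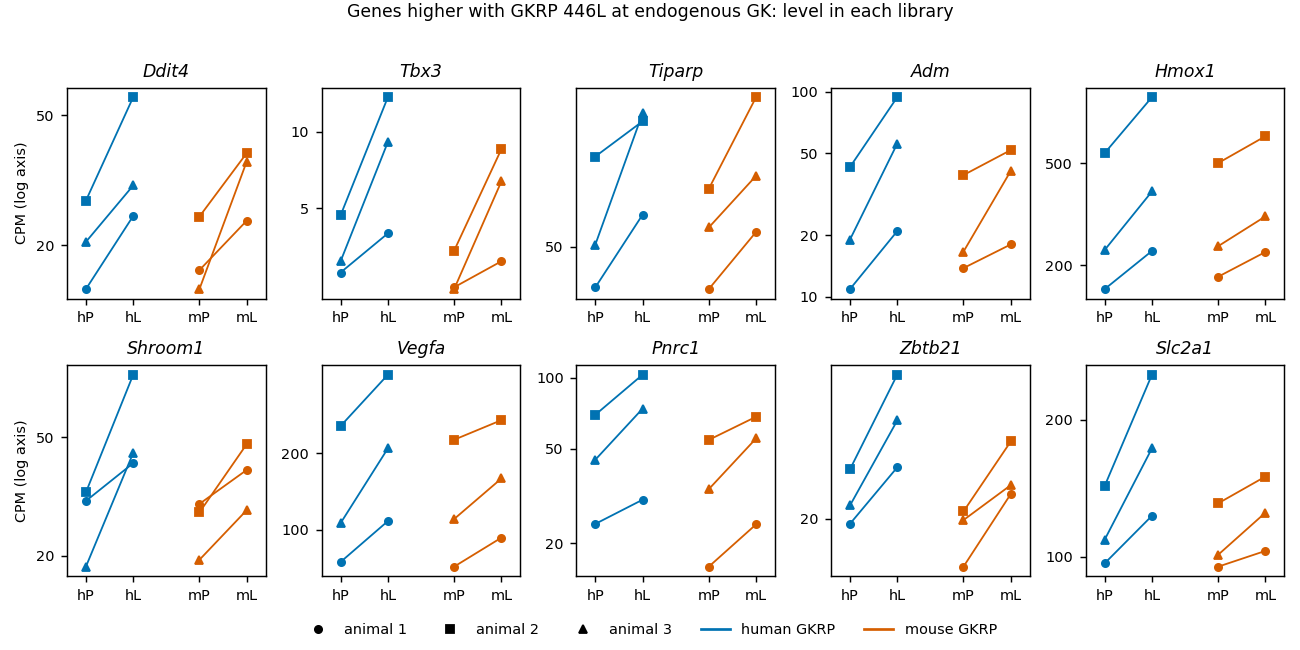
Level of the 10 called genes in each of the 12 libraries, in CPM on log axes, with a line from the 446P to the 446L culture of the same animal and GKRP species. All 60 lines slope upwards, while the 3 animals often lie further apart than the ends of a line.

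Just outside the fold limit, Slc1a4 and Hspa8 passed the adjusted p of the blocked fit. Slc1a4, a transporter of alanine, serine and cysteine, was 36.0 to 45.8 CPM with 446P and 48.9 to 59.0 CPM with 446L, so that all 6 446L libraries lay above all 6 446P libraries, which held for 7 genes (0.0575%) of those tested, while 5 genes (0.0411%) lay wholly below. Its log2 fold change was 0.37 (SE 0.07), with the smallest adjusted p of the fit without the block (0.556), and with the block 0.37 (SE 0.06, adjusted p = 0.0125, fold 1.29). Hspa8, the constitutive heat shock protein of the HSP70 family, was 2780 to 5960 CPM with 446P and 3190 to 7130 CPM with 446L. Its blocked log2 fold change was 0.29 (SE 0.06, adjusted p = 0.0341, fold 1.23). It was higher with 446L in 6 of 6 pairs. On the log2 scale the human GKRP pairs differed by 0.05 to 0.21 and the mouse GKRP pairs by 0.35 to 0.57.

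The stretch of 250 bases before the transcription start is given for 3 of the called genes, as the sequence next to the start of genes that were higher together. The motifs ACGTG and GCGTG were searched on both strands, as the core that hypoxia-inducible factors and related proteins of the same family bind, a choice made after the values were seen. The 2 motifs differ in their first letter, and on a palindrome such as CACGTG the matches of the 2 strands overlap. In the RefSeq promoter table (GRCm38.p6), 7 of the 10 genes had an entry. Taking the first entry of each gene, 5 of these 7 held a match, against 57.4% of the 8965 tested genes with an entry. Pnrc1 held none, Vegfa held none in its first entry and 2 in its other, and Hmox1, Tbx3 and Shroom1 had no entry. Matches are in capitals below, each line running 5′ to 3′ along the gene's strand: Ddit4 at chr10:59951771-59952020 (minus), Adm at chr7:110627407-110627656 (plus) and Slc2a1 at chr4:119108495-119108744 (plus).
Ddit4: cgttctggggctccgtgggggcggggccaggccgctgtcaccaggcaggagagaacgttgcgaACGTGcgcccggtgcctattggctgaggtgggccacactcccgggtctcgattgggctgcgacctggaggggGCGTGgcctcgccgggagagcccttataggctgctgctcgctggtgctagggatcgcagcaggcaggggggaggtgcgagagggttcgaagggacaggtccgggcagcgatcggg
Adm: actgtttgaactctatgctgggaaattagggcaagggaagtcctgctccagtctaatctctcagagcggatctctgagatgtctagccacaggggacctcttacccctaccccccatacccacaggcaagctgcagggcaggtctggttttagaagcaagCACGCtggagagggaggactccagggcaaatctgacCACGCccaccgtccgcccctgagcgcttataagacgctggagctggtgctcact
Slc2a1: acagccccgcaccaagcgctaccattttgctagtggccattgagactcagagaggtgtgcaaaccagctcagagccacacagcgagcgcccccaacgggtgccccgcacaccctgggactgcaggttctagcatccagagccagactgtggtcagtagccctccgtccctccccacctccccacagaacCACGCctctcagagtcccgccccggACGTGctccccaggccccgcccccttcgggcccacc
Each of the 3 stretches held 2 matches. At least 2 matches were found in 4 of the 7 first entries and in 28.5% of those of the tested genes. A match describes letters and shows no binding.

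Within a single species edgeR on all libraries called no gene, while DESeq2 called some. For human GKRP, edgeR called 0 genes with or without the block. At an unadjusted p under 0.05 there were 348 higher and 269 lower with it (2.86% and 2.21% of those tested) and 109 and 102 without it (0.895% and 0.838%), and DESeq2 without the block called 11 higher and 8 lower. Adm, Hmox1, Shroom1 and Slc2a1 shared the smallest adjusted p, 0.0543. For mouse GKRP edgeR also called 0 genes in both fits. At an unadjusted p under 0.05 there were 279 higher and 176 lower with the block (2.29% and 1.45%) and 90 and 62 without it (0.739% and 0.509%), and DESeq2 without the block called 5 higher and 7 lower. Its smallest adjusted p was 0.23, for Hspa8. Blocked log2 fold changes of the 10 genes ran from 0.46 for Zbtb21 to 1.28 for Tbx3 with human GKRP, and from 0.21 for Slc2a1 to 1.05 for Tbx3 with mouse GKRP. Ddit4 had the same value with both species, 0.81 (SE 0.16 in each). For Adm it was 1.22 (SE 0.22) with human and 0.69 (SE 0.22) with mouse GKRP. The difference of the 446L effect between the species was called for 0 genes by edgeR in both fits. At an unadjusted p under 0.05 there were 242 higher and 191 lower with the block (1.99% and 1.57%) and 102 and 78 without it (0.838% and 0.641%), and DESeq2 without the block called 9 and 14. Among the 10 genes the unadjusted p of this difference in the blocked edgeR fit was lowest for Slc2a1 (mouse minus human -0.42, 95% interval -0.75 to -0.09, adjusted p = 1).

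The same allele contrast was also made in 12 other libraries, in which the same vectors were combined with GK overexpression. These libraries share the 3 animals with those above but no culture. In the blocked fit 42 genes were called higher there and 0 lower (0.345% and 0% of the genes tested). Of the 10 genes called at endogenous GK, 8 were among these 42, which is also 8 of 42 for the genes called with GK overexpression. Of the same 10 genes, 9 were higher with 446L in 6 of 6 pairs, against 2.34% of the genes tested. With GK overexpression the log2 fold change was 0.68 (SE 0.11) for Ddit4, 1.13 (SE 0.16) for Adm, 0.72 (SE 0.10) for Vegfa, 0.58 (SE 0.08) for Hmox1 and 0.51 (SE 0.08) for Slc2a1. Tbx3 was not called there (0.72, SE 0.18, adjusted p = 0.0798), nor was Zbtb21 (0.07, SE 0.08, adjusted p = 0.972). The difference between the 2 GK levels was called for none of the 10, and its unadjusted p in the blocked edgeR fit was lowest for Zbtb21 (0.34, 95% interval 0.12 to 0.56, adjusted p = 1). Without the block 0 genes were called with GK overexpression in edgeR, and 166 were higher and 125 lower at an unadjusted p under 0.05 (1.36% and 1.03%), against 537 and 337 with the block (4.41% and 2.77%).

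**Figure D4:**
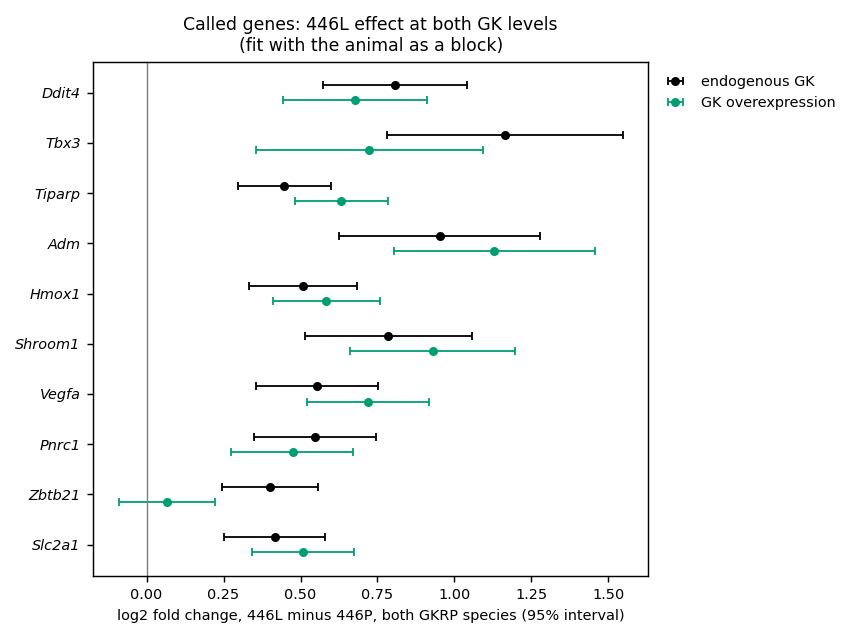
Log2 fold change of 446L over 446P, both species pooled, for the 10 called genes at endogenous GK (black) and with GK overexpression (green), with 95% intervals from the blocked fit. The 2 intervals overlap for each gene except Zbtb21, whose interval with GK overexpression includes 0.

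The genes that GK overexpression induces were examined next, to ask whether GKRP 446L leaves them higher at endogenous GK. The list holds 13 genes. It is drawn from the genes that the study names as induced by GK in these hepatocytes and is only a part of them. All but G6pc1 come from the study's overlap of genes raised by GK and lowered by GKRP with genes raised by diet in mouse liver, and G6pc1 is named there as raised by GK. They were thus chosen on these samples, in other contrasts that include the libraries with GK overexpression. None of the 13 was called at endogenous GK with or without the block. The median log2 fold change was 0.10 without the block and 0.08 with it, against 0.002 and 0.003 over all genes, and 10 of the 13 were above 0. In animals 1, 2 and 3 the median over the list was 0.17, 0.18 and 0.09 with the human vectors, and 0.10, 0.12 and 0.04 with the mouse vectors. The list median fell to -0.004 with an offset for transcript length. Rnf144b, a ubiquitin ligase, was the 1 gene with an unadjusted p under 0.05 in the edgeR fit without the block (0.22, SE 0.10, adjusted p = 1). The changes and SEs given below for single genes of this list are also from the fit without the block. These SEs therefore include the spread between animals. The median SE of the 13 genes was 0.297 in that fit and 0.202 with the block.

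Among the enzymes of the list, Pklr, the liver pyruvate kinase, was 69.5, 33.9 and 52.3 CPM with hP in animals 1, 2 and 3 and 78.3, 41.2 and 54.6 CPM with hL. It was 55.7, 29.3 and 51.1 CPM with mP and 59.0, 31.8 and 57.0 CPM with mL, higher with 446L in 6 of 6 pairs but by 0.06 to 0.28 on the log2 scale, and the groups overlapped. Its pooled log2 fold change was 0.14 (SE 0.24, without the block). Hcn3, also on the list, lies on the opposite strand and overlaps the end of Pklr, and since the counting is not stated to use strand their shared reads cannot be told apart. Tkfc, the triokinase of fructose metabolism, was 140 to 163 CPM with 446P and 127 to 178 CPM with 446L, a change of 0.04 (95% interval -0.17 to 0.25). G6pc1, the catalytic subunit of glucose-6-phosphatase, was 0.31 to 2.70 CPM with 446P and 0 to 3.48 CPM with 446L, near the limit of detection.

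Of the transporters and secreted or signalling genes, Rgs16, a regulator of G protein signalling, was the only one besides Pklr that was higher in 6 of 6 pairs. Rgs16 was 2.95, 3.83 and 1.62 CPM with hP, 3.98, 6.05 and 4.09 CPM with hL, 4.30, 5.83 and 2.06 CPM with mP and 4.63, 8.76 and 3.58 CPM with mL, and its change was 0.60 (SE 0.39). Angptl8, an inhibitor of lipoprotein lipase, was 4.12 to 5.43 CPM with hP and 8.04 to 14.8 CPM with hL. With the mouse vectors it was 3.43 to 12.6 CPM with mP and 4.48 to 11.1 CPM with mL. Its log2 fold change was 1.09 (SE 0.41, unadjusted p = 0.0146, adjusted p = 1) for human and 0.06 (SE 0.40) for mouse GKRP. Slc2a2, the glucose transporter GLUT2, was 7.60 to 28.3 CPM with 446P and 6.09 to 35.2 CPM with 446L, a change of 0.16 (SE 0.46). Slc25a44 and Slc25a47, carriers of the mitochondrial membrane, had log2 fold changes of 0.004 (SE 0.11) and 0.04 (SE 0.24).

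In the libraries with GK overexpression the same 13 genes had a median log2 fold change of 0.88, with all 13 above 0. Of these, 5 were called with the block and 0 without it, where 0.345% and 0% of all genes were called higher. The study chose all but G6pc1 partly on these libraries, as genes raised by GK and lowered by GKRP. Values with GK overexpression, and their difference from those at endogenous GK, are thus not independent of how the list was chosen. Tkfc had a log2 fold change of 0.56 (SE 0.10) there and Rgs16 one of 1.86 (SE 0.36). The effect at endogenous GK minus that with GK overexpression had a median of -0.57 (-0.67 with the block) and was below 0 for 12 of the 13 genes, and Lhx6, a homeobox gene, was the exception. None of these differences was called by edgeR in either fit, in which 162 genes were higher and 200 lower at an unadjusted p under 0.05 with the block (1.33% and 1.64%) and 69 and 74 without it (0.567% and 0.608%). With the block 10 of the 13 had an unadjusted p under 0.05 in that direction. For Tkfc the difference was -0.52 (SE 0.14, edgeR unadjusted p = 0.00139, adjusted p = 1). The standard errors bound what could be seen at endogenous GK: the 95% interval lay within ±1 on the log2 scale for 8 of the 13 genes without the block and for 11 with it.

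**Figure D5:**
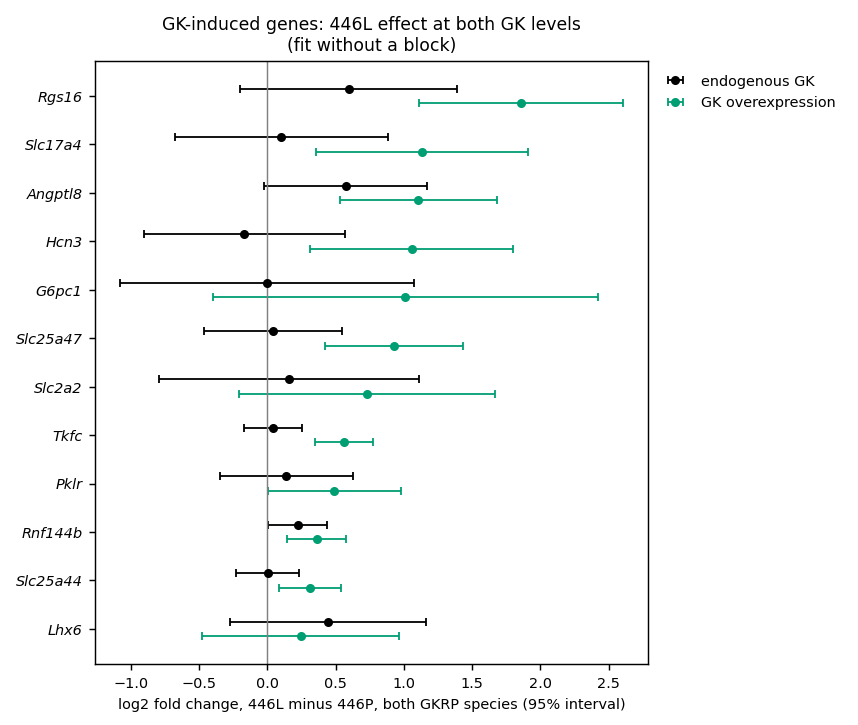
Log2 fold change of 446L over 446P, both species pooled, for 12 of the 13 GK-induced genes at endogenous GK (black) and with GK overexpression (green), with 95% intervals from the fit without the block. The black points lie between -0.17 and 0.60 and the green points between 0.24 and 1.86, and for every gene shown except Lhx6 the green point is to the right of the black.

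None of the enzymes that share the substrate of GK was called. Hk2, the hexokinase of muscle and growing cells, was low but higher with 446L in 6 of 6 pairs. It was 1.58 to 4.55 CPM with 446P and 2.81 to 6.13 CPM with 446L, with a blocked log2 fold change of 0.53 (SE 0.23, adjusted p = 0.871). Hk1 had a log2 fold change of 0.10 (SE 0.13) with the block, and Hk3 and Hkdc1 stayed at or below 2.23 CPM in every library. Of 19 genes of glycolysis and gluconeogenesis none was called, 2 were higher and 0 lower at an unadjusted p under 0.05 with the block, where 2.95% and 2.23% of all genes were. The blocked median was 0.07 pooled, 0.15 for human GKRP and 0.007 for mouse GKRP. One of these 2 was Pfkfb3, an enzyme that makes the activator of phosphofructokinase. It was 33.4 to 70.6 CPM with 446P and 54.4 to 89.2 CPM with 446L and higher in 6 of 6 pairs (0.57, SE 0.12, adjusted p = 0.062). Pck2, the mitochondrial phosphoenolpyruvate carboxykinase, was likewise higher in 6 of 6 pairs (0.46, SE 0.22, adjusted p = 0.955).

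Lipid and sterol genes had medians near 0, and none was called. For 11 tested genes of ChREBP and its targets the blocked median was 0.06 and 0 genes in either direction had an unadjusted p under 0.05. Of 13 lipogenic genes 0 did, with a median of 0.004, and Scd1, the stearoyl-CoA desaturase, was 2260 to 3310 CPM with 446P and 2420 to 3660 CPM with 446L (0.09, SE 0.07). For 24 genes of cholesterol synthesis and uptake the median was -0.04, with 7 above 0, and with the block 1 was higher and 0 lower at an unadjusted p under 0.05. By species, without the block, 16 of the 24 were above 0 for human GKRP (median 0.03) and 5 of 24 for mouse GKRP (median -0.08), and no gene's difference between the species was called by edgeR. Hmgcs1, the cytosolic HMG-CoA synthase, was 222 to 293 CPM with 446P and 211 to 263 CPM with 446L (-0.10, SE 0.06). For 11 genes of cholesterol excretion and bile acids the median was 0.04.

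Of the stress and proliferation lists, that of the unfolded protein and heat shock response had 7 of 20 genes higher and 0 lower at an unadjusted p under 0.05 with the block, where 2.95% of all genes were higher, but none was called. Its median was 0.10, and the summed level, 6570 to 11800 CPM with 446P and 6640 to 12900 CPM with 446L, was higher with 446L in 6 of 6 pairs. Hspa8, described above, is on this list and made up a large part of the sum (2780 to 5960 CPM with 446P and 3190 to 7130 CPM with 446L). By species 2 of the 20 were higher at that p for human GKRP and 6 for mouse GKRP (2.86% and 2.29% of all genes). The blocked medians were 0.026 and 0.185, and none of the 20 was called by edgeR for a difference between the species. Chac1, which degrades glutathione and is induced by the factor ATF4, was 4.21 to 15.3 CPM with 446P and 8.15 to 22.9 CPM with 446L (0.97, SE 0.23, adjusted p = 0.141). Ddit3, a regulator of the same response, was higher in 5 of 6 pairs (0.48, SE 0.13, adjusted p = 0.29), and its reads may be shared with another locus annotated over it. Among 11 immediate early genes 3 were higher and 0 lower at an unadjusted p under 0.05, and Atf3 was higher in 6 of 6 pairs (0.26, SE 0.07, adjusted p = 0.236).

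The interferon list had members with lower values. Of its 19 tested genes 0 were higher and 7 lower at an unadjusted p under 0.05 with the block, where 2.23% of all genes were lower, and none was called. The blocked median was -0.10, and the summed level was higher with 446L in 1 of 6 pairs. By species 6 genes were lower at that p for human GKRP and 1 for mouse GKRP (2.21% and 1.45% of all genes). With GK overexpression 0 of the 19 were lower, where 2.77% of all genes were, and the blocked median was -0.07. None of the 19 was called by edgeR for a difference between the species or between the GK levels. Cxcl10, a chemokine induced by interferon, was 8.91 to 17.1 CPM with 446P and 4.03 to 10.5 CPM with 446L (-0.69, SE 0.22, adjusted p = 0.53). Ifit1, which binds foreign RNA, was 25.1 to 35.6 CPM and 13.8 to 27.5 CPM (-0.52, SE 0.19, adjusted p = 0.73). Of 34 tested S phase genes 1 was higher and 1, Mcm2 of the replicative helicase, lower at an unadjusted p under 0.05 (Mcm2 -0.20, SE 0.09). For 10 p53 targets the median was -0.02 and for 14 acute phase genes 0.01, and 0 genes of either list had an unadjusted p under 0.05.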

How the data were processed

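RNA-seq of hepatocyte cultures was mapped by the authors with Salmon 1.4.0 on untrimmed reads against Gencode M26 transcripts (GRCm39), and for each library they deposited expected counts per transcript, TPM and effective lengths. Samples were grouped by the labels. Of 139225 transcripts, 137570 (98.811%) were matched by identifier to genes of a later Gencode release, after which the expected counts of each gene's transcripts were added up and rounded to whole numbers. The deposited TPM and effective lengths were used only for an alternative scaling of Gckr and for the offset of transcript length. Tests used R 4.3.3 and edgeR 4.0.16 (glmQLFit and glmQLFTest) on 10 conditions and 30 samples, the 2 cultures of an animal in untreated and in GK being summed, after filterByExpr by group and TMM, with Benjamini-Hochberg adjustment over 12176 genes. A gene was called at an adjusted p under 0.05 and a fold of at least 1.3 or at most 0.7. DESeq2 1.42.0 was an alternative. The edgeR tests of the pooled comparison were run on counts simulated from the blocked fit. Without the block 29% of simulated 1.5-fold changes and 69% of 2-fold changes were called, and with it 51.5% and 85.5%. Small changes could thus be missed in both fits, and more so without the block. The labels name the animal, so libraries of the same number share a preparation. As a check, departures from the mean of each condition had a mean correlation of 0.256 for libraries of one animal (18 pairs, lowest -0.018) and of -0.127 for those of different animals. The departures in a condition sum to 0, so the second value follows largely from the first and is no separate evidence. The fit with the animal as a block is given beside the fit without it. The p-values of the fit without the block measure the spread among cultures of 3 animals. Those of the blocked fit measure the spread left among cultures once the mean of each animal is removed. The human and mouse pairs of an animal count separately in the fits, so the 6 pairs come from only 3 animals. Named genes were all those called in either fit, the 6 with the smallest p in each, the GK-induced and hexokinase lists, and 2 genes of each other list by p. Hspa8 and the genes of the closing observations were named after their values were seen. The members and lists were chosen with earlier results of these data known. A few genes of these lists are not reported here by name.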

Additional observations from a re-analysis of the deposited data

How the results depend on the processing

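The 95% interval of the pooled log2 fold change lay within ±1 for 83.1% of genes without the block and 88.8% with it. Counts below are higher, then lower. With the replicate block, 10 and 0 genes were called for both species pooled, and with the block also 10 higher with RLE, 10 with a stricter filter and 12 without a fold limit. Leaving out 1 animal in turn gave 0 to 3 higher with the block and 0 without it. Leaving out hL of animal 1, the library with the fewest reads, gave 22 and 2 pooled and 12 higher for human GKRP with the block. DESeq2 called 12 and 8 pooled, 11 and 8 for human GKRP, 5 and 7 for mouse GKRP, 9 and 14 for the species difference and 7 and 5 for the difference by GK level. With the block it called 38 and 6, 37 and 10, 9 and 8, 10 and 12, and 8 and 11. In the 12 libraries with the block the species difference was called for 2 genes, Rnu1a1 and n-R5s100, named after their values were seen. The cause of these differences was not tested. The median of the GK-induced list, 0.10, was -0.004 with an offset for transcript length, and it ranged from 0.057 without animal 1 to 0.149 without animal 3. Gckr with mL was 81% of mP in CPM and 88.3% by the authors' TPM summed over transcripts, where 1 of 3 animals was lower. The transcript ENSMUST00000201166 was lower with mL in each animal by TPM. The 10 called genes were higher with 446L in every setting, but all settings reuse libraries in which these genes were called. The alternatives that combine the block with another choice were added after the data were seen.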

Other observations

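Because several of the called genes are known to be induced at low oxygen, a list of 27 such genes was written after the values were seen. It holds 5 of the 10 called genes (Ddit4, Adm, Vegfa, Slc2a1 and Hmox1), so its counts are a description and carry no test. Of the 25 tested, 24 had a pooled log2 fold change above 0, with a median of 0.34 (0.33 with the block) against 0.002 over all genes, and 17 were higher with 446L in 6 of 6 pairs, as were 2.6% of all genes. At an unadjusted p under 0.05 with the block 17 were higher and 0 lower, where 2.95% and 2.23% of all genes were, and without the block 4 were higher and 0 lower, against 0.961% and 0.895%. The median was 0.36 for human and 0.21 for mouse GKRP with the block. With GK overexpression it was 0.49 with the block. In that fit 13 of the 25 were called, as were 0.345% of all genes, and without the block 0 were called. The summed level was 4370 to 9410 CPM with 446P and 4740 to 11500 CPM with 446L, higher in 6 of 6 pairs.

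The members that were not called ranged widely. Egln3, a prolyl hydroxylase that acts on hypoxia-inducible factors, had a blocked log2 fold change of 0.48 (SE 0.11, edgeR adjusted p = 0.128), and Igfbp1, which binds insulin-like growth factors, one of 0.41 (SE 0.09, adjusted p = 0.128). The glycolytic enzyme Ldha, 1040 to 2110 CPM with 446P and 1070 to 2190 CPM with 446L, had a log2 fold change of 0.03 (SE 0.06), and Bnip3, a mitochondrial protein of the same response, one of 0.04 (SE 0.09). Animal 2 had the highest level of Egln3, Ldha and Bnip3 in each of the 4 groups.

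Ppp1r3b and Gys1 act in glycogen storage. Ppp1r3b, which targets protein phosphatase to glycogen, was 10.2 to 44.0 CPM with 446P and 18.3 to 74.0 CPM with 446L and higher in 6 of 6 pairs (0.83, SE 0.18, adjusted p = 0.125). Gys1, the glycogen synthase of muscle and other tissues, was 3.44 to 10.7 CPM and 4.45 to 19.1 CPM, also higher in 6 of 6 pairs (0.74, SE 0.17, adjusted p = 0.128). Depp1, a target of FOXO factors that is lowered by insulin, had a median of 27.9 CPM with 446P and 68.5 CPM with 446L (0.93, SE 0.19, adjusted p = 0.0547), and with GK overexpression it was called (1.05, SE 0.18, adjusted p = 0.00639). These genes were singled out after their values were seen.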
